A study of Homo sapiens with 18 samples.

Results

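The insulin-like growth factor (IGF) binding proteins and IGF receptors were followed through the MCF10 model of breast cancer progression, in which the m6A RNA methyltransferase METTL3 was targeted by CRISPR. The 10 genes were chosen by name for their place in IGF signalling, with earlier results of these data known. The list held the ligand IGF2, the receptors IGF1R, IGF2R and INSR, and the binding proteins IGFBP2, IGFBP3, IGFBP4, IGFBP5, IGFBP6 and IGFBP7. These genes are 10 of the 35933 with values in the deposited table, and all 10 had a row.

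The libraries came from 3 human breast epithelial lines of one lineage. MCF10A is a spontaneously immortalized, non-tumorigenic, basal-like line. MCF10AT1 is MCF10A with a stably integrated, mutated HRas, and MCF10CA1h, which is highly tumorigenic, arose when MCF10AT1 cells were passed through serial mouse xenografts. In each line, 3 libraries were labelled as control negative CRISPR and 3 as METTL3 CRISPR knockdown, 18 libraries in 6 groups. All cells, controls included, had received an all-in-one Cas9 and guide RNA construct that also makes mCherry, carrying either a control guide or a guide to exon 1 of METTL3. All were then sorted for mCherry and grown from single cells, and medium with horse serum, insulin, hydrocortisone, cholera toxin and epidermal growth factor was common to the lines. Each labelled knockdown was thus a clonal line set against a single negative line, so an effect of the guide and a difference between clones cannot be told apart. Nothing in the labels says whether replicates a, b and c were separate cultures, and the p-values then measure only the spread between these libraries.

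IGF1 and IGF2 are secreted growth factors related to insulin. IGF1R and INSR are receptor tyrosine kinases that pass their signal through IRS and SHC adaptors to the PI3K-AKT and MAPK pathways, while IGF2R, the cation-independent mannose 6-phosphate receptor, carries IGF2 to lysosomes and does not signal as a kinase. IGFBP2 to IGFBP6 hold IGFs outside the cell with high affinity, which can keep the ligand from its receptor or store it near the surface. IGFBP7 binds IGFs weakly and is known as a secreted protein of the matrix and of blood vessels. In the mammary gland IGFBP5 is best known for its rise during involution.

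The values are normalized counts, read estimates per gene that the authors scaled between libraries. They are not per length, so levels of different genes are compared only after division by transcript length, where this is stated. The libraries summed to between 21347352 and 31681834 normalized counts, and the read depth behind each gene is unknown. Differences were tested with limma after adding 1 to each value and taking log2, with the Benjamini-Hochberg adjustment over all genes tested and a threshold of 0.05. A gene was tested where its mean in the fitted libraries reached 10, which left out IGF2 in every fit, and IGFBP5 within MCF10A, within MCF10CA1h and among the controls. Where IGFBP5 was tested, it reached this mean only through the MCF10AT1 libraries labelled METTL3 CRISPR, so counts are also given without it, a choice made after these values were seen, and without the filter.

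The target was examined first. METTL3 (ENSG00000165819, chr14:21498133-21511342, minus strand, hg38) had 752, 686 and 459 normalized counts in the MCF10A controls and 939, 981 and 510 in the labelled knockdown, 128% of the control mean. It was at 88.5% in MCF10AT1 and 70.8% in MCF10CA1h. The exact two-sided permutation p was 0.3, 0.3 and 0.1 for 3 libraries against 3, where 0.1 is the smallest possible, and limma passed only MCF10CA1h (log2 difference -0.49, SE 0.12, adjusted p = 0.0234). In MCF10A the ranges overlapped and the mean was not below the control (limma adjusted p = 0.618). The arms are therefore called the labelled knockdowns here. A small edit in exon 1 need not lower the transcript. The study examined METTL3 protein by Western blotting and its transcript by RT-PCR as well, and those measurements are not analysed here.

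The 3 MCF10AT1 libraries labelled METTL3 CRISPR stood apart in cell type markers. Over 10 epithelial markers their summed level was 17157 to 38264 normalized counts, against 120401 to 219121 in the MCF10AT1 controls, and 7 of the 10 tested were lower, among them EPCAM with 79 to 126 against 3494 to 4291. Over 12 fibroblast and mesenchymal markers the sum was 12260 to 12714 against 789 to 1149, and 4 of the 9 tested were higher, including COL6A1, THY1 and COL3A1. COL1A2 was at 0, 0 and 5.72 and LUM at 0, 0.46 and 0 in those libraries, so these fibroblast markers were at or near 0. MTAP, a gene of the 9p21 region that MCF10A is known to lack, had 106 to 133 normalized counts there and 1.53 to 46.5 in the other 15 libraries, a difference from the MCF10AT1 controls that missed the threshold (log2 difference 3.42, SE 0.96, adjusted p = 0.0518). Not all listed markers moved: KRT18 and TP63 of the epithelial list, and COL1A1 and TWIST1 of the mesenchymal list, overlapped between the arms. HRAS, mutated in MCF10AT1, had 22037, 26021 and 25059 normalized counts in these libraries. The controls had 12707, 20146 and 12438 in MCF10AT1, 10402, 10303 and 8778 in MCF10A and 12633, 9960 and 11764 in MCF10CA1h. HRAS was not tested as a check of identity. Whether these cells are the MCF10AT1 derivative that their label names was not tested, and their identity is not established here. Every MCF10AT1 result below that involves the labelled knockdown rests on these 3 libraries and carries that limit. Comparisons among the controls do not use them. A difference in the cells themselves and an effect of the guide cannot be told apart. The part of the marker shift in the results that use these libraries was not tested. Fewer cells of a type and less RNA per cell cannot be told apart in such bulk samples.

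**Figure D1:**
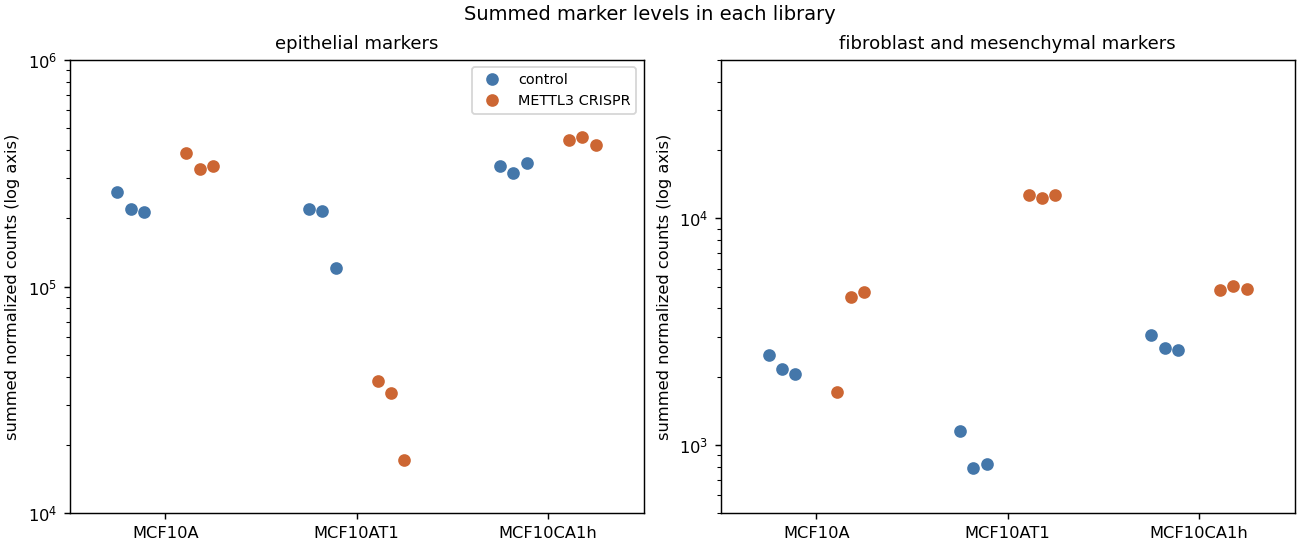
Summed normalized counts (log axis) of 10 epithelial markers (left) and 12 fibroblast and mesenchymal markers (right), with a point for each library, by cell line and arm. The MCF10AT1 libraries labelled METTL3 CRISPR lie lowest on the left, at 17157 to 38264, and highest on the right, at 12260 to 12714.

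Across the lines the binding proteins carried most of the variation. Since the genes were chosen with earlier results of these data known, the shares of all genes beside the counts are no test of the family. In MCF10AT1 the labelled knockdown had higher IGFBP2, IGFBP3, IGFBP4, IGFBP5 and IGFBP7 than the control, 5 of the 9 genes tested and none lower, where 13.0% of all genes passed and 7.07% were higher. Without IGFBP5, which had to differ in order to be tested there, they were 4 of 8, and with no filter the same 5 passed among all 10, where 3.89% of all genes passed. In MCF10CA1h 5 of 8 passed, against 12.8% of all genes (7.91% higher, 4.85% lower): IGFBP6 and IGFBP7 rose while IGFBP2, IGFBP3 and INSR fell. In MCF10A only IGFBP2 passed, 1 of 8, against 2.65% of all genes (1.16% higher). In MCF10A the median log2 difference of the genes tested was -0.17, in MCF10AT1 without IGFBP5 3.04 and in MCF10CA1h -0.50, where the medians of all genes lay between -0.02 and 0.02. With the replicate letter as a block, IGFBP3 passed as well in MCF10A, 2 of 8 with 7.60% of all genes passing, and IGFBP6 and IGF2R in MCF10AT1, 7 of 9, or 6 of 8 without IGFBP5, with 24.5% passing. In MCF10CA1h, of the 5 genes IGFBP2 alone passed when all 18 libraries shared a fit and a spread, where IGFBP5 passed as well, and again IGFBP2 alone without the filter on low values, where IGF2 passed as well.

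**Figure D2:**
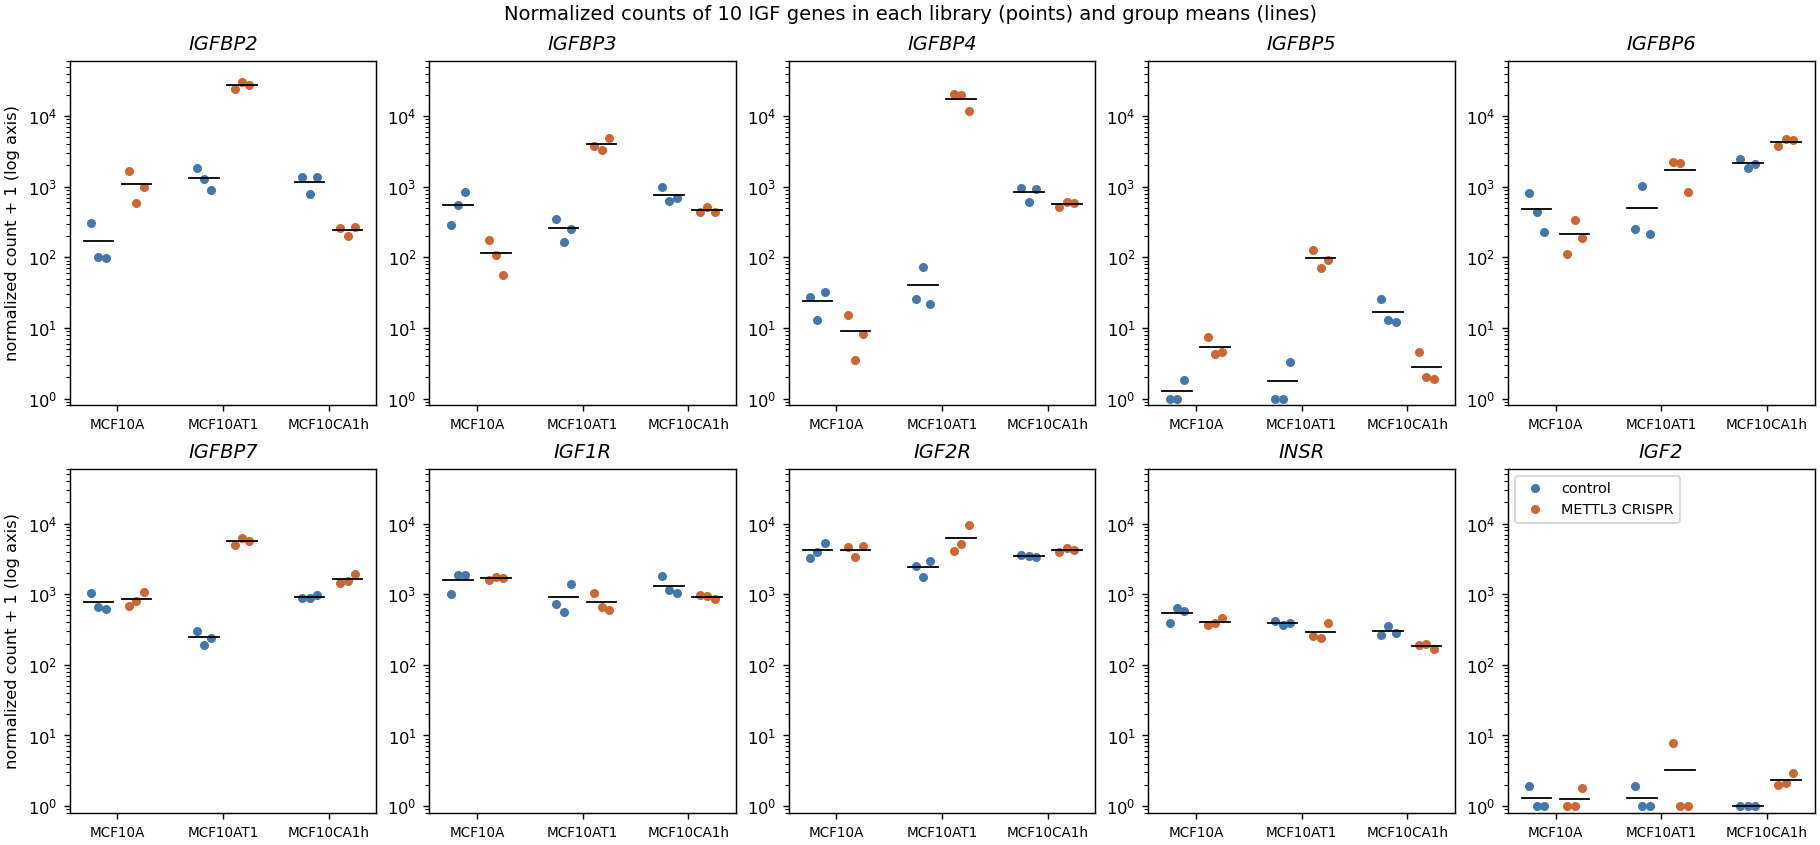
Normalized count plus 1 (log axis) of each of the 10 genes in every library, by cell line. Points are libraries, blue for negative control and orange for METTL3 CRISPR, and black lines are group means. The IGFBP panels span far more of the axis than the receptor panels, and IGF2 stays at or below 6.84 normalized counts.

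**Figure D3:**
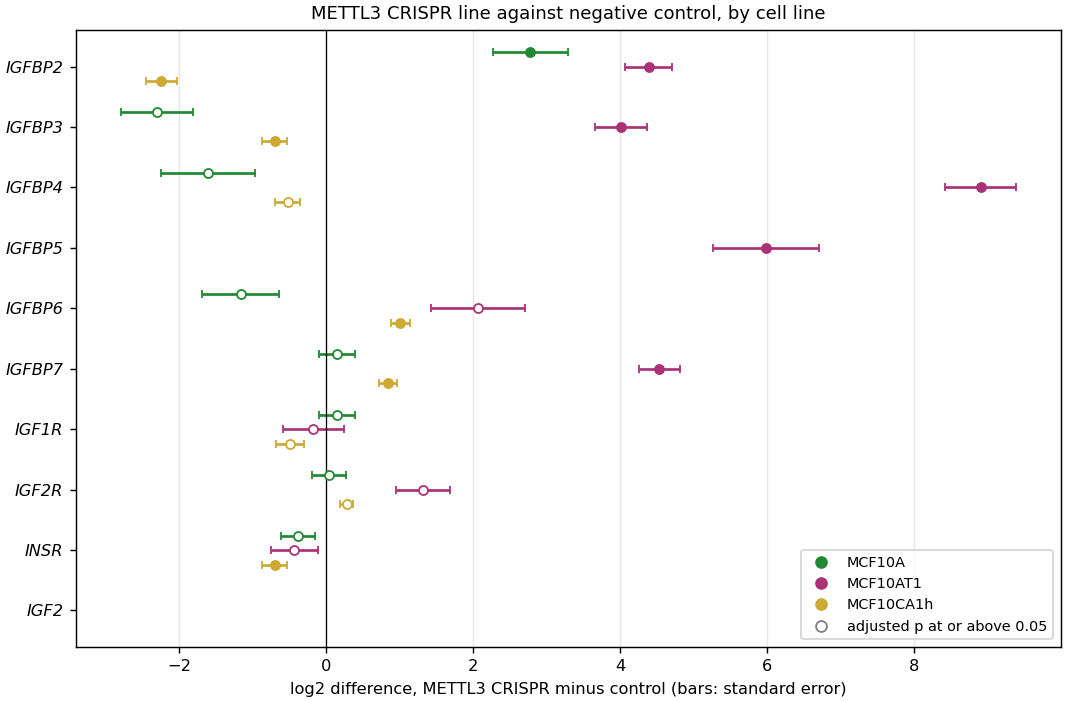
Log2 difference between the labelled METTL3 knockdown and the negative control for each gene in each of the 3 lines, with bars for the standard error. Filled points passed the adjusted threshold of 0.05, and genes under the filter are left blank. IGFBP4 in MCF10AT1 lies farthest from 0, at 8.90, and IGFBP2 is right of 0 in MCF10A and MCF10AT1 and left of 0 in MCF10CA1h.

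The ligand was barely present. IGF2 (ENSG00000167244, chr11:2129112-2158391, minus strand) was listed at 0 in 11 of the 18 libraries. Its highest value was 6.84 normalized counts in MCF10AT1 METTL3 CRISPR replicate a, with 0 in replicates b and c of that group. In MCF10CA1h it was at 0 in all 3 controls and at 1.01, 1.15 and 1.94 in the labelled knockdown. These values were below the filter, and no fold is given against 0. IGF1 was at 0 in all libraries but an MCF10AT1 METTL3 CRISPR library with 2.01. Little transcript of either ligand was thus detectable in any group at this depth.

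The receptors moved less than the binding proteins. Group means of the receptors spanned 1.2 to 1.52 on the log2 scale over the 6 groups, against 4.48 to 11.1 for the 6 binding proteins. IGF1R (ENSG00000140443, chr15:98648539-98964530, plus strand), the main receptor of both IGFs, had 1000, 1881 and 1890 normalized counts in the MCF10A controls and 1601, 1778 and 1722 in the labelled knockdown. MCF10AT1 had 735, 558 and 1407 against 1050, 650 and 592. The ranges of both pairs overlapped. In MCF10CA1h the controls had 1806, 1148 and 1031 and the labelled knockdown 979, 928 and 854, so all 3 treated libraries lay below the controls. That log2 difference of -0.49 (SE 0.19) did not pass (adjusted p = 0.119). The order of the group means ran from 1700 in the MCF10A labelled knockdown to 764 in that of MCF10AT1, and neighbouring groups overlapped except the MCF10CA1h control and MCF10CA1h labelled knockdown.

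IGF2R (ENSG00000197081, chr6:159969082-160113507, plus strand) was the receptor with the highest level per kilobase of transcript in every group, with means of 171 to 444 against 62.4 to 139 for IGF1R. In MCF10AT1 it had 2543, 1726 and 2930 normalized counts in the controls and 4154, 5097 and 9463 in the labelled knockdown, with no overlap. The log2 difference of 1.32 (SE 0.37) missed the threshold (adjusted p = 0.0527). It passed with the replicate letter as a block (adjusted p = 0.00374), in the shared fit (0.00151) and with 5 in place of 1 added before the log2 (0.0494). In MCF10CA1h the controls had 3617, 3463 and 3330 and the labelled knockdown 3911, 4480 and 4280, again without overlap and without passing (log2 difference 0.28, SE 0.09, adjusted p = 0.0698). In MCF10A the ranges, 3238 to 5383 and 3320 to 4873, overlapped almost wholly.

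INSR (ENSG00000171105, chr19:7112255-7294414, minus strand), the insulin receptor, which also binds IGF2, was the receptor that passed in a line. In MCF10CA1h it had 264, 357 and 281 normalized counts in the controls and 187, 197 and 167 in the labelled knockdown. All treated libraries were below all controls, and the mean fell to 0.611 of the control (log2 difference -0.70, SE 0.17, adjusted p = 0.0231). This call was lost without control replicate b or treated replicate b or c, with an adjusted p of at most 0.074, in the shared fit (adjusted p = 0.193) and without the filter (0.11). In MCF10A INSR had 395, 640 and 587 against 369, 396 and 462, and in MCF10AT1 415, 367 and 389 against 252, 243 and 391, with a single treated library reaching into the control range in the latter. Neither difference passed (log2 -0.38 and -0.43, adjusted p = 0.423 and 0.417). The ratio of IGF1R to INSR per kilobase was 2.24 ± 0.267 (SD, n = 3) in the MCF10A controls and 3.24 ± 0.315 in the labelled knockdown, 1.78 ± 0.885 and 2.15 ± 1.03 in MCF10AT1, and 3.54 ± 1.53 and 3.88 ± 0.216 in MCF10CA1h.

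Among the binding proteins, IGFBP2 (ENSG00000115457, chr2:216632828-216664436, plus strand), which is abundant in fetal tissue and in many tumours, passed in all 3 lines, but not in a common direction. In MCF10A it had 306, 99 and 96 normalized counts in the controls and 1664, 591 and 983 in the labelled knockdown. MCF10AT1 had 1866, 1265 and 907 against 24149, 30335 and 27191. In MCF10CA1h the control libraries had 1360, 798 and 1347 and the treated libraries 262, 197 and 267. The groups did not overlap in any line, with the treated libraries on top in the first pair of lines and below in MCF10CA1h. Means rose from 167 ± 120 to 1080 ± 543 (SD, n = 3) in MCF10A and from 1346 ± 485 to 27225 ± 3093 in MCF10AT1. In MCF10CA1h the mean fell from 1168 ± 321 to 242 ± 39.4. The log2 differences were 2.78 (SE 0.51, adjusted p = 0.0337), 4.39 (SE 0.32, adjusted p = 1.1e-04) and -2.24 (SE 0.21, adjusted p = 1.7e-04). The MCF10A call was lost without control replicate b or c or any treated replicate (adjusted p of at most 0.123), without the filter (0.218) and without the intensity trend (0.0818), while its direction stayed.

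IGFBP3 (ENSG00000146674, chr7:45912245-45921874, minus strand) is the main IGF carrier of serum and is known for growth inhibition in breast epithelium. In MCF10AT1 it had 352, 165 and 250 normalized counts in the controls and 3753, 3282 and 4958 in the labelled knockdown. The groups lay far apart, and the mean rose 15.6-fold (log2 difference 4.01, SE 0.35, adjusted p = 2.4e-04). In MCF10A the order was the opposite, with 283, 544 and 830 in the controls and 177, 105 and 56 in the labelled knockdown. Every treated library was below every control, the mean being 0.204 of the control. The test missed the threshold (log2 difference -2.30, SE 0.49, adjusted p = 0.0527). The difference passed with the replicate letter as a block (adjusted p = 0.0343), in the shared fit (0.00379) and with 5 in place of 1 added before the log2 (0.049). In MCF10CA1h it had 999, 631 and 681 against 442, 518 and 440. It fell to 0.606 of the control (log2 difference -0.70, SE 0.17, adjusted p = 0.0274). This call was lost without control replicate a or treated replicate a or c (adjusted p of at most 0.0881), without the intensity trend (0.0944), without the filter (0.219) and in the shared fit (0.653).

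IGFBP4 (ENSG00000141753, chr17:40443450-40457725, plus strand) inhibits IGF action until it is cleaved by the protease PAPPA. It showed the widest range of the 10 genes, 11.1 on the log2 scale over the group means. In MCF10AT1 it had 25, 72 and 21 normalized counts in the controls and 20188, 19556 and 11948 in the labelled knockdown. A transcript that was low in the controls was thus abundant in all 3 treated libraries. The mean rose 434-fold (log2 difference 8.90, SE 0.48, adjusted p = 3.2e-05). MCF10A held 26, 12 and 31 in the controls and 14, 2.46 and 7.28 in the labelled knockdown, with an overlap and no pass (log2 difference -1.60, SE 0.64, adjusted p = 0.232). MCF10CA1h held 944, 608 and 928 against 514, 605 and 581. There the treated libraries lay just below the controls (log2 difference -0.52, SE 0.17, adjusted p = 0.0776), and the difference passed when the libraries were scaled to equal sums (log2 -0.58, adjusted p = 0.0455) or without control replicate b (adjusted p = 0.00877).

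IGFBP5 (ENSG00000115461, chr2:216672105-216695549, minus strand) is the neighbour of IGFBP2, which runs toward it on the other strand and ends 7668 bases away. It was the rarest binding protein, and its treated libraries lay on the same side of the controls as those of IGFBP2 in each line. In MCF10AT1 it was at 0, 0 and 2.26 normalized counts in the controls and at 127, 69 and 90 in the labelled knockdown. Every treated library lay above every control. Since only the treated libraries brought it over the filter, the test under the filter (adjusted p = 0.00123) is no support for a change. With no filter, where all genes were tested, it passed with an adjusted p of 0.0222. The log2 difference of 5.98 depends on the constant of 1 added before the logarithm, with 6.71 for 0.5 and 4.11 for 5. MCF10A had 0, 0 and 0.82 against 6.40, 3.26 and 3.56, and MCF10CA1h 25, 12 and 11 against 3.55, 1.01 and 0.86. Neither pair overlapped, but both were under the filter and were not tested within the line.

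IGFBP4 and IGFBP5 were the pair of binding proteins with the lowest means in the MCF10AT1 controls, 39.7 and 0.753 normalized counts. The stretches upstream of them are shown as printed in RefSeq (GRCh38.p14), 250 bases each. They run 5′ to 3′ on the strand of the gene and end at the base before its start. IGFBP4 lies at chr17:40443200-40443449 (plus strand) and IGFBP5 at chr2:216695550-216695799 (minus strand). Capitals mark TATAAA, the core of a TATA box, and GGGCGG, the core that SP1 binds, searched on both strands, so that a GGGCGG of the other strand appears as CCGCCC.
IGFBP4: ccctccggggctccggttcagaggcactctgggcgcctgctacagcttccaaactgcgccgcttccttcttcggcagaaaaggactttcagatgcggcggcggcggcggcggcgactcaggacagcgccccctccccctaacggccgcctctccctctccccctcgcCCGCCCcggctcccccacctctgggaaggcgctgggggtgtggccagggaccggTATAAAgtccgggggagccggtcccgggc
IGFBP5: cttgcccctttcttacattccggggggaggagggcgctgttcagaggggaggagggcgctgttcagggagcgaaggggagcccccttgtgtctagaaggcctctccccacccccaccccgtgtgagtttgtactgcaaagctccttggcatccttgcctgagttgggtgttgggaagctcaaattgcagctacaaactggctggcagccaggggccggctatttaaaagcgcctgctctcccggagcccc
IGFBP4 had a TATAAA whose first base was at -29 and a GGGCGG of the other strand at -83, counted from the start. IGFBP5 had neither exact string in this window, and variants of a TATA box were not searched for. Of 35116 such windows of human genes, 10.7% held TATAAA and 42.6% held GGGCGG. A window was found for 8 of the 10 genes, and over those 8 TATAAA was found in IGFBP4 alone. These matches describe the letters and were not tested against expression.

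IGFBP6 (ENSG00000167779, chr12:53097436-53102345, plus strand) prefers IGF2 over IGF1. In MCF10CA1h it had 2493, 1843 and 2125 normalized counts in the controls and 3705, 4653 and 4617 in the labelled knockdown. All treated libraries were higher, and the mean rose 2.01-fold (log2 difference 1.01, SE 0.13, adjusted p = 0.0011), a call that the shared fit (adjusted p = 0.62) and the fit without the filter (0.0655) did not make. MCF10AT1 had 248, 1022 and 213 against 2212, 2136 and 848, with control replicate b above treated replicate c. That difference missed the threshold (log2 2.07, SE 0.64, adjusted p = 0.0714). The difference passed with the replicate letter as a block (adjusted p = 0.00132), in the shared fit (0.00994) or without control replicate b (0.00869). In MCF10A it had 807, 431 and 227 against 112, 338 and 185, with overlap (log2 difference -1.16, adjusted p = 0.28).

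IGFBP7 (ENSG00000163453, chr4:57030773-57110385, minus strand) was higher in the labelled knockdown of the MCF10AT1 and MCF10CA1h lines. The MCF10AT1 libraries had 302, 191 and 242 normalized counts in the controls and 4951, 6315 and 5617 in the labelled knockdown. The spread within each arm was small beside the gap, and the mean rose 23.0-fold (log2 difference 4.53, SE 0.28, adjusted p = 4.8e-05). In MCF10CA1h it had 888, 883 and 971 against 1463, 1546 and 1918, a rise of 1.80-fold with no overlap (log2 difference 0.84, SE 0.12, adjusted p = 0.00206) that was lost in the shared fit (adjusted p = 0.0877) and without the filter (0.0567). MCF10A had 1034, 668 and 624 against 675, 811 and 1067, which overlapped (log2 difference 0.15, SE 0.25, adjusted p = 0.813).

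Without overlap of the arms there were 2 of 8 genes in MCF10A, where 23.9% of all genes tested did not overlap, 6 of 9 in MCF10AT1 (32.8%), or 5 of 8 without IGFBP5, and 8 of 8 in MCF10CA1h (32.7%). The 3 comparisons have separate controls. Whether the difference between labelled knockdown and control was unequal between lines was tested itself, as an interaction in a fit of all 18 libraries. IGFBP5 entered these fits only through the MCF10AT1 libraries labelled METTL3 CRISPR, its mean over the other 15 libraries being 4.64 normalized counts. With no filter its 3 interactions passed (adjusted p of at most 0.00841), and the counts were 6, 2 and 5 of 10, where 9.29%, 1.90% and 7.57% of all genes passed, in the order of the comparisons below. Between MCF10AT1 and MCF10A, 6 of 9 genes passed, 5 of 8 without IGFBP5, all with the more positive difference in MCF10AT1, where 21.6% of all genes passed and 11.2% in that direction. They were IGFBP4 (difference of the log2 differences 10.50, SE 0.71), IGFBP3 (6.30, SE 0.58), IGFBP7 (4.39, SE 0.32), IGFBP5 (3.88, SE 0.84), IGFBP6 (3.23, SE 0.80) and IGF2R (1.28, SE 0.39). For IGFBP2, which rose in both lines, the difference of 1.61 (SE 0.60) missed the threshold (adjusted p = 0.0655). The call for IGF2R was lost with libraries at equal sums (log2 1.03, adjusted p = 0.116) and without MCF10A control replicate c or treated replicate b (adjusted p of at most 0.0718).

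Between MCF10CA1h and MCF10A, 2 of 9 passed, 1 of 8 without IGFBP5, both with the more negative difference in MCF10CA1h, where 5.34% of all genes passed and 1.69% in that direction. The differences were -5.02 for IGFBP2 (SE 0.60, adjusted p = 1.6e-04) and -4.73 for IGFBP5 (SE 0.84, adjusted p = 0.00326). In a fit without the MCF10AT1 libraries, chosen after seeing that they stood apart, IGFBP2 passed with -5.02 (adjusted p = 4.2e-04), IGFBP5 fell under the filter, and IGFBP6 passed with 2.17 (SE 0.59, adjusted p = 0.0279). Between MCF10CA1h and MCF10AT1, 5 of 9 passed, 4 of 8 without IGFBP5, all with the more negative difference in MCF10CA1h, where 18.2% of all genes passed and 8.51% in that direction. These were IGFBP4 (-9.42), IGFBP5 (-8.61), IGFBP2 (-6.63), IGFBP3 (-4.70) and IGFBP7 (-3.70). For IGF1R and INSR no interaction passed, with differences between -0.64 and -0.05 and standard errors of 0.46 and 0.32.

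The negative controls gave the levels in each line without the METTL3 guide. A single negative CRISPR line stood for each, so a difference between the lines and a difference between clones cannot be told apart. The comparisons share samples, since each control group enters a pair of those below, and no overlap between them is drawn. From MCF10A to MCF10AT1, 3 of 8 genes passed, where 28.1% of all genes passed (13.3% higher, 14.7% lower in MCF10AT1). IGFBP2 was 8.06-fold higher in MCF10AT1 (log2 difference 3.16, SE 0.46, adjusted p = 0.00242), IGFBP7 was lower at 0.316 of MCF10A (log2 difference -1.64, SE 0.25, adjusted p = 0.00317), and IGF2R was lower at 0.572 (log2 difference -0.81, SE 0.25, adjusted p = 0.0384). The IGF2R call was lost without any of 7 of the 9 libraries, which were MCF10A b and c, MCF10AT1 a and b and each of MCF10CA1h (adjusted p of at most 0.14), with equal sums (0.0535), without the filter (0.0967) and without the trend (0.061).

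From MCF10A to MCF10CA1h, 4 of 8 passed, where 37.8% of all genes passed. IGFBP4 was 35.7-fold higher in MCF10CA1h (log2 difference 5.17, SE 0.51, adjusted p = 1.8e-04) and IGFBP2 6.99-fold higher (log2 difference 2.98, SE 0.46, adjusted p = 0.00146). IGFBP6 was 4.41-fold higher (log2 difference 2.31, SE 0.60, adjusted p = 0.0148). That call was lost without MCF10A replicate c or MCF10CA1h replicate a (adjusted p of at most 0.0592) and without the filter (0.0659). INSR was lower at 0.556 of MCF10A (log2 difference -0.83, SE 0.24, adjusted p = 0.0235), which was lost without MCF10A replicate b or c or MCF10CA1h replicate a or c (adjusted p of at most 0.0993).

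From MCF10AT1 to MCF10CA1h, 4 of 8 passed and all were higher in MCF10CA1h, where 21.8% of all genes passed and 11.0% were higher. The log2 differences were 4.53 for IGFBP4 (adjusted p = 4.7e-04), 2.49 for IGFBP6 (adjusted p = 0.0175), 1.92 for IGFBP7 (adjusted p = 0.0011) and 1.62 for IGFBP3 (adjusted p = 0.0222). IGFBP2 differed little between these lines (log2 -0.18, SE 0.46, adjusted p = 0.803). The IGFBP3 call was lost without any MCF10CA1h library (adjusted p of at most 0.091) and the IGFBP6 call without any of these or MCF10AT1 replicate a (at most 0.0699). Without the filter both calls were lost (adjusted p = 0.0749 for IGFBP3 and 0.0731 for IGFBP6). IGFBP5, under the filter, was at 25, 12 and 11 normalized counts in the MCF10CA1h controls and at no more than 2.26 in the other controls. With no filter IGFBP5 passed in MCF10CA1h against MCF10A (adjusted p = 0.0076) and against MCF10AT1 (0.0151).

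**Figure D4:**
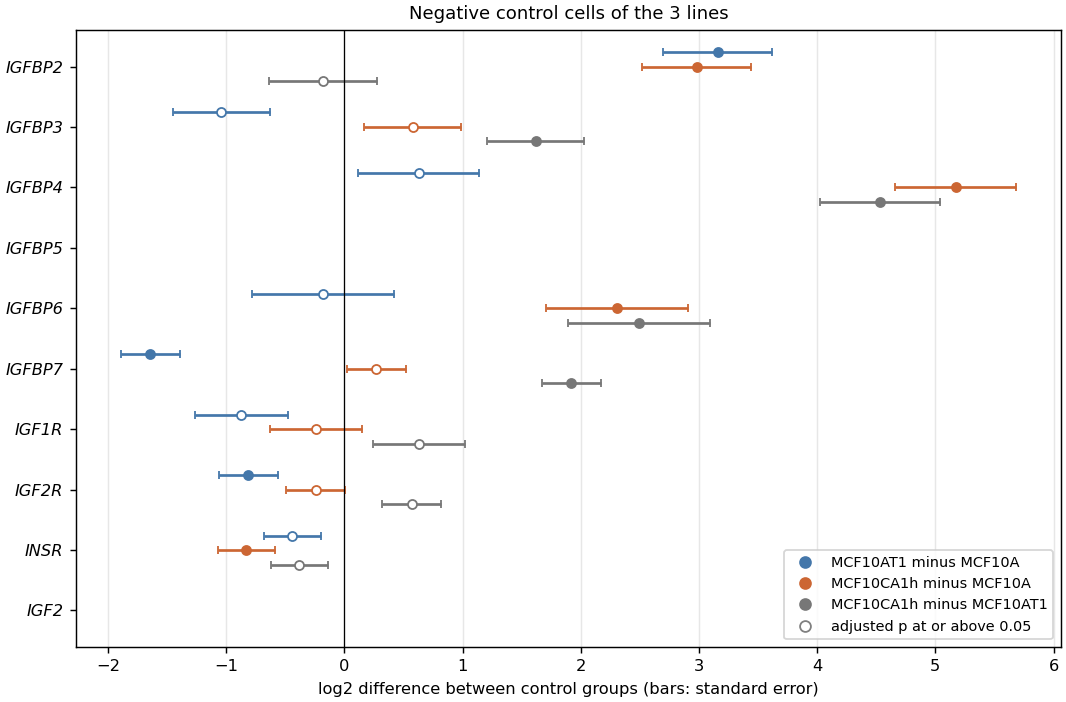
Log2 differences between the negative control groups of the 3 lines for each gene, with bars for the standard error. Filled points passed the adjusted threshold of 0.05. IGFBP4 stands right of 0 in both comparisons with MCF10CA1h, at 5.17 and 4.53, and IGFBP2 in both with MCF10A, at 3.16 and 2.98.

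After division by transcript length the make-up of the binding protein transcripts could be compared. Their summed level per kilobase was 1399 ± 450 (SD, n = 3) in the MCF10A controls and 1631 ± 231 in the labelled knockdown. It was 1762 ± 553 and 34386 ± 3524 in MCF10AT1, and 4413 ± 703 and 6325 ± 702 in MCF10CA1h. In the MCF10A controls IGFBP7 made up 39.1% ± 1.38 and IGFBP6 34.8% ± 11.4 of the sum, and IGFBP2 7.81% ± 3.04. In the labelled knockdown of MCF10A IGFBP2 made up 45.3% ± 17.1 while IGFBP3 went from 17.5% ± 11.9 to 2.63% ± 1.21. In MCF10AT1 the share of IGFBP2 was 54.9% ± 13.8 in the controls and 56.1% ± 5.13 in the labelled knockdown, although its level per kilobase went from 952 to 19254, and IGFBP4 went from 0.976% ± 0.462 to 22.6% ± 5.06. In MCF10CA1h IGFBP6 led with 51.6% ± 2.16 in the controls and 72.1% ± 1.93 in the labelled knockdown, and IGFBP2 went from 18.5% ± 2.76 to 2.74% ± 0.627. IGFBP5 stayed under 0.08% of the sum in all 18 libraries. These shares are described without a test, and they rest on the length of the canonical transcript of each gene.

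**Figure D5:**
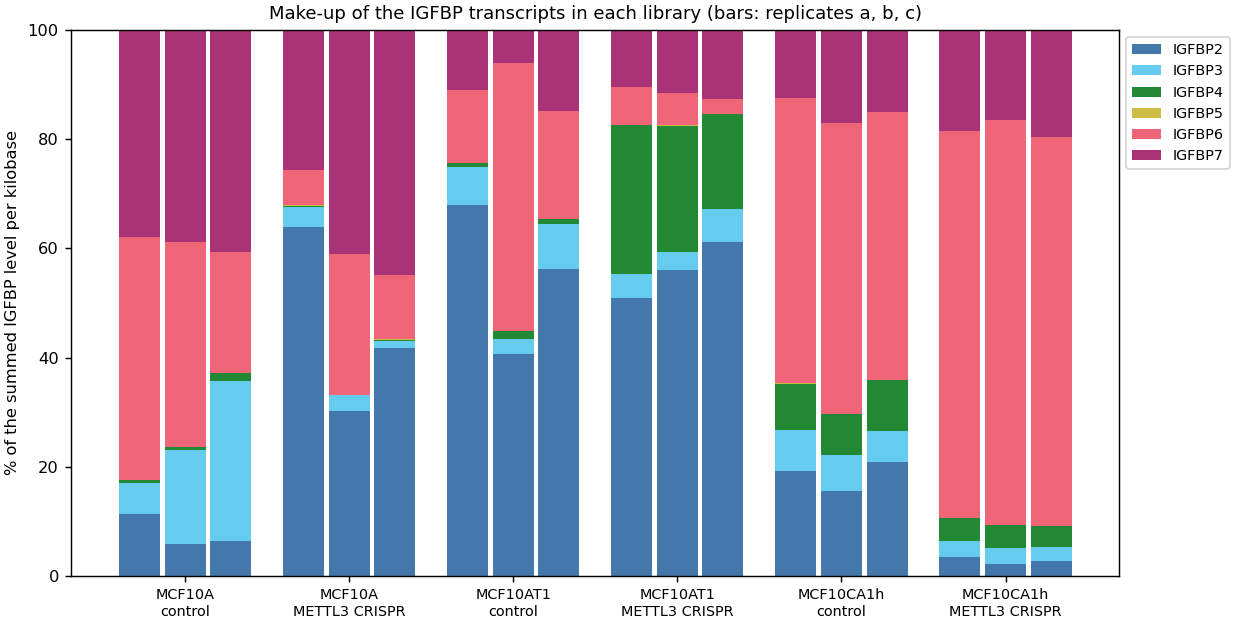
Share (%) of each of the 6 binding proteins in their summed level per kilobase, with a stacked bar for each library, grouped by cell line and arm. IGFBP7 and IGFBP6 fill most of the MCF10A control bars, IGFBP2 leads on average in both arms of MCF10AT1, and IGFBP6 fills 70.8% to 74.3% of the bars of the MCF10CA1h labelled knockdown.

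Of 52 other genes of the IGF pathway with a row, 44 or 45 were tested in each comparison. In MCF10A, 1 of 44 passed, PIK3R3, a regulatory subunit of PI3K, which rose from 249 ± 100 to 901 ± 265 normalized counts (log2 difference 1.90, SE 0.36, adjusted p = 0.0376). That call was lost, leaving none of the list, without the filter, without the intensity trend, without control replicate b and without any treated replicate. With the replicate letter as a block 8 passed, 3 higher and 5 lower, where 7.60% of all genes passed. Without control replicate a 9 passed, of which 7 were lower, where 1418 of 15419 genes passed. In MCF10AT1, 4 of 45 passed. H19, the imprinted RNA beside IGF2, rose from 23, 11 and 2.65 to 2357, 1810 and 450 normalized counts (log2 difference 6.95, SE 0.83, adjusted p = 0.00113), while IGF2 itself was at 0 in 2 of those 3 libraries. SHC1, an adaptor of both receptor kinases, rose by 2.07 (SE 0.49) on the log2 scale, and LRP1, an endocytic receptor that also binds IGFBP3, by 1.22 (SE 0.33), while GRB14, an adaptor that inhibits INSR, fell from 536 ± 189 to 49.9 ± 62.8 (log2 difference -4.17, SE 0.88, adjusted p = 0.0165). With the block 15 passed, 10 higher and 5 lower, where 24.5% of all genes passed. In the shared fit 16 passed, where 5146 of 15897 genes did. With equal sums or without the trend only H19 and GRB14 passed, and H19 alone without the filter, without control replicate a or without treated replicate b, so the calls of SHC1, LRP1 and GRB14 were lost there. With any other library left out between 3 and 6 passed.

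In MCF10CA1h, 6 of 44 passed and all were higher, led by STC1 (log2 difference 1.07, SE 0.24), GSK3B (0.63, SE 0.11) and STC2 (0.55, SE 0.12). STC1 and STC2 are stanniocalcins, known as inhibitors of the protease PAPPA that cleaves IGFBP4, and GSK3B is a kinase held in check by AKT. None of the 6 passed in the shared fit or without the filter, only GSK3B without the trend, and only GSK3B and PTPN1 without treated replicate b. That all were higher did not hold with equal sums, where 4 were higher and PIK3R1 and PIK3R2 lower, nor with the block, where 4 were higher and PIK3R1 lower. PAPPA itself had 104, 94 and 75 normalized counts in the MCF10CA1h controls and 39, 33 and 100 in the labelled knockdown. In MCF10AT1 it had 209, 30 and 399 against 289, 229 and 853, so the ranges overlapped in both lines. In MCF10AT1 each treated library was above the control of the same letter, and the log2 difference of 1.49 missed the threshold (adjusted p = 0.34) but passed with the letter as a block (adjusted p = 0.0292). The shares of this list that passed, 2.27%, 8.89% and 13.6%, stand beside 2.65%, 13.0% and 12.8% of all genes. Of the other family genes, IGFBP1, IGFBPL1, IGFALS and INSRR, reached at most 6 normalized counts in any library, and INS was not analysed here.

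For the 3 genes with the widest range, the genes with the most similar pattern were found by Pearson's r of the log2 values over the 18 libraries, among 12447 genes with a mean of at least 50. These r describe 6 groups more than 18 points, and they share the libraries and their scaling. For IGFBP4 the nearest included THY1-AS1 (0.968) and PLEKHG4 (0.967), with 0.930 and 0.939 over the 15 libraries left without the MCF10AT1 labelled knockdown. For IGFBP2 they were RGS3 (0.974), CTSF (0.955) and B4GAT1 (0.952), with 0.904, 0.828 and 0.839 without those libraries. For IGFBP5 they were RPH3AL (0.931), DNAJC12 (0.929) and FRG1CP (0.925), with 0.795, 0.813 and 0.786.

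METTL3 methylates adenosine within short sequences of which GGACU is the best known, read here as GGACT on the sense strand of the canonical transcripts. GGACT occurred 4 times in IGFBP4, 9 times in IGFBP5 and 2 times in IGFBP6, or 1.81, 1.44 and 2.11 per kilobase, against a median of 0.923 over 19675 canonical protein-coding transcripts, of which 87.9% held at least 1. IGFBP2 and IGFBP3 held 1 each (0.707 and 0.383 per kilobase), and the receptors were between 0.736 and 0.925 per kilobase. IGFBP7 held none. A match is not a methylated site, and no methylation was measured in these libraries.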

How the data were processed

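Gene expression was measured by RNA sequencing in 18 libraries, 3 for each of 6 groups. According to the study's methods and the submitters' processing notes, the authors made stranded libraries with a ribosomal RNA depletion kit (whereas polyA RNA is named in the labels), ran paired-end sequencing, quantified transcripts of hg38 with kallisto 0.46.1, brought the estimates to gene level by tximport and scaled them with DESeq2 1.26.0. The annotation release is not given in the sources used here. The deposited values are normalized counts, a signal per gene scaled between libraries by the authors and written with 2 decimals, for 35933 genes, with 24646 further rows without values. Symbols were matched for 35894 genes. Between 29.7% and 53.6% of the low values of a library lay at whole multiples (tolerance 0.02) of its commonest low value, so reads were not recovered, no test on counts was run, and no counting interval is given.

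Each line was fitted alone in R 4.3.3 with limma 3.58.1 (lmFit, eBayes with an intensity trend) on log2 values with a pseudocount of 1, keeping genes whose mean in the fitted libraries was 10 or more. The 9 controls were fitted together, and interactions in a fit of 18 libraries. All p-values are two-sided, with the Benjamini-Hochberg adjustment at 0.05. Fold changes on this scale understate those of low genes, and ratios are of means. METTL3 was also tested by an exact permutation test of 3 against 3. Python 3.11.15, SciPy 1.17.1, NumPy 2.4.6, pandas 2.3.3 and matplotlib 3.10.9 served for the rest. Gene positions and canonical transcripts came from GENCODE v44 (hg38), and upstream sequences from RefSeq. The scripts were tested on simulated data.

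Replicate letters are those of the sample titles. Deviations from the group means were correlated between the arms of a line for libraries of the same letter. The correlations were 0.221, 0.2 and 0.116 in MCF10A and 0.11, 0.289 and 0.477 in MCF10AT1. In MCF10CA1h they were -0.0112, 0.0173 and 0.046. The fit with the letter as a block is therefore given beside a result of the first pair of lines where it changes a call. Libraries of different letters were not compared. Same-lettered controls of different lines reached 0.284, above every value of MCF10A, so a pairing by letter is not established.

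Named were the 10 genes, METTL3, the 3 largest rises and falls past the threshold among other IGF pathway genes in each line, and the 3 most similar genes of the 3 with the widest range, of which 1 is not reported here. PAPPA, HRAS, the low family genes and the marker genes named singly were chosen after their values were seen. The 10 genes and all lists were chosen with earlier results of these data known. Besides the epithelial and mesenchymal lists, markers of endothelial cells (3, 1 and 2 tested in MCF10A, MCF10AT1 and MCF10CA1h, 1 lower in the last), leukocytes (1 tested in each, 1 lower in MCF10CA1h) and luminal cells (4, 3 and 3 tested, 1 lower in MCF10AT1) were counted. In MCF10A 1 of 9 epithelial markers was higher and none of 5 mesenchymal markers passed, and in MCF10CA1h 4 of 9 and 3 of 10 were higher, with 1 mesenchymal marker lower. Alternatives were other pseudocounts (0.5, 5), no filter or a mean of at least 50, no trend, other scalings, the replicate block, a joint fit and each library left out.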

Additional observations from a re-analysis of the deposited data

Results flagged for a closer look

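The difference between the labelled METTL3 knockdown and its control was unequal between lines for 13 pairs of a gene and a line comparison, each by its own interaction test. An effect of the guide and a difference between clones cannot be told apart, and no explanation was tested. The 3 values of IGFBP5 are no support for such a difference under the filter, which it passed only through the MCF10AT1 libraries labelled METTL3 CRISPR, and with no filter they passed with an adjusted p of at most 0.00841. Against MCF10A, the MCF10AT1 difference was more positive by 10.50 for IGFBP4 (adjusted p = 2.6e-08), 6.30 for IGFBP3 (7.5e-07), 4.39 for IGFBP7 (6.1e-08), 3.88 for IGFBP5 (0.00324), 3.23 for IGFBP6 (0.00761) and 1.28 for IGF2R (0.0253), all on the log2 scale. Against MCF10A, the MCF10CA1h difference was more negative for IGFBP2, with -5.02 (adjusted p = 1.6e-04), and for IGFBP5, with -4.73 (0.00326). Against MCF10AT1, the MCF10CA1h difference was more negative for IGFBP4, with -9.42 (adjusted p = 9.9e-08), IGFBP5, with -8.61 (1.8e-06), IGFBP2, with -6.63 (6.6e-07), IGFBP3, with -4.70 (1.8e-05), and IGFBP7, with -3.70 (4.5e-07). The values that involve MCF10AT1 rest on the 3 labelled knockdown libraries that stood apart in epithelial and mesenchymal markers and whose identity was not established. The groups of 3 libraries were too small for a test of single outlying libraries.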

How the results depend on the processing

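Over the single genes, 629 of the values under other settings kept their direction and side of the threshold, 13 newly passed and 18 no longer passed. With each library left out the numbers were 788, 15 and 33, and 16 changed sign, none of them a call in either fit. The number of genes that passed in MCF10A, 1 of 8, became 2 with a pseudocount of 5, with the replicate block and in the joint fit, 0 without the filter and 0 without the trend, and with a library left out it was 2 without control replicate a and 0 without any of the other 5. In MCF10CA1h the 5 became 2 without the filter and 2 in the joint fit, each sharing only IGFBP2 with the 5, and ranged from 3, without treated replicate c, to 5 with a library left out. Among the controls the 4 of MCF10CA1h against MCF10A ranged from 2, without MCF10A c or MCF10CA1h a, to 4, and the 4 of MCF10CA1h against MCF10AT1 from 2, without MCF10CA1h a, b or c, to 6. The 2 of the MCF10CA1h and MCF10A interaction became 1 with a mean of at least 50, where IGFBP5 was filtered out. The joint fit shares a spread over all libraries, and the fit without the filter adjusts over 35933 genes. The causes of the other shifts were not tested.

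Signs changed with a library left out for small differences: in MCF10A for IGFBP7 (-0.03 to 0.37), IGF1R (-0.15 to 0.31) and IGF2R (-0.13 to 0.23), in MCF10AT1 for IGF1R (-0.46 to 0.21), among controls for IGFBP6 of MCF10AT1 against MCF10A (-0.90 to 0.27) and IGFBP2 of MCF10CA1h against MCF10AT1 (-0.44 to 0.08), and in the interaction of MCF10AT1 and MCF10A for IGF1R (-0.61 to 0.05) and INSR (-0.27 to 0.16).

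With the replicate block, beside the calls given in the report for MCF10A and MCF10AT1, IGFBP2 passed in the interaction of MCF10AT1 and MCF10A (adjusted p = 0.00404) and IGF2R in that of MCF10CA1h and MCF10AT1 (0.0214), and the block changed no other call of the 10 genes. In the interactions the letter was a block within each line, and it crossed lines only in the fits of the controls. Same-lettered controls of different lines had correlations of -0.268 to 0.284, so the block in the fits of the controls has no basis in the data.

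Some differences that missed the threshold passed without a single control: IGFBP3 within MCF10A (adjusted p = 0.0143), in MCF10AT1 against MCF10A controls (0.0217) and in the MCF10CA1h and MCF10A interaction (0.0355) without MCF10A a, and IGF1R and IGF2R in MCF10CA1h against MCF10AT1 controls (0.0427 and 0.0407) and IGF1R in MCF10AT1 against MCF10A controls (0.0126) without MCF10AT1 c. The IGF2R interaction of MCF10CA1h and MCF10AT1 passed without MCF10AT1 control c or treated a (lowest 0.0291), that of IGFBP6 in MCF10CA1h and MCF10A without MCF10AT1 control b (0.0489), and that of IGFBP2 in MCF10AT1 and MCF10A without MCF10A control b or c, MCF10A treated a or MCF10AT1 control a (lowest 0.0282).

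Over all genes, 409 passed in MCF10A, but 117 without the filter, 237 without the trend and 1172 with the block, and 52 to 1418 with a library left out. In MCF10AT1 2091 passed, but 3939 with the block, 5146 in the joint fit and 1020 to 2439 with a library left out. In MCF10CA1h 1929 passed, but 606, 1123 and 248 without the filter, without the trend and in the joint fit, and 1089 to 1785 with a library left out. Among the controls 4391 became 2698 without the filter for MCF10AT1 against MCF10A, and with a library left out the 3 counts ranged from 1661 to 8142, 3675 to 7623 and 1608 to 5593. The interaction of MCF10CA1h and MCF10A had 849, and 1283 with the block, 2217 without the MCF10AT1 libraries and 470 to 1220 with a library left out. Equal sums turned 1196 higher and 733 lower in MCF10CA1h into 1042 and 1034, and 1773 and 1664 in the interaction of MCF10AT1 and MCF10A into 1340 and 2044, and shifted the median of all genes by up to -0.26 on the log2 scale. Without read counts the precision of low genes such as IGF2 and IGFBP5 is unknown.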
